A study of Mus musculus with 33 samples.

Results

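Cxcr4 and 8 adhesion genes through which blood progenitors home to and stay in the marrow were followed across sorted cells of old mice. The members were the 9 of the 55376 gene symbols in the count tables whose names equal Cxcr4, Itga4, Itga5, Itga6, Itgb1, Itgal, Cd44, Selplg and Vcam1. They were picked as homing and adhesion genes, and Cxcr4 was selected on its counts in hematopoietic stem cells (HSCs), lower with treatment. The cohort behind that selection is not named, and it is taken to be the one the labels call cohort 2. The contrast in those HSCs is therefore described for all 9 without a test. Every member passed the filter on low counts in every fit, with 56 or more reads in each library.

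All mice were C57BL/6 males of 24 to 29 months with no other genetic change given. O-WT mice were untreated, O-NR mice received the NAD+ precursor nicotinamide riboside (NR) at 12 mM in drinking water for 4 to 6 weeks, and O-NR-RC mice had NR and then 2 months without it. Cohort 2 held 4 O-WT and 4 O-NR total RNA libraries of each of 3 sorted populations: HSCs, lymphoid progenitors (CLPs, common lymphoid) and myeloid ones (GMPs, granulocyte-monocyte). Cohort 1 held HSCs only, with 2 untreated (O-WT), 4 treated (O-NR) and 3 washed-out (O-NR-RC) libraries. The titles say GMP, and another label of the same libraries says common myeloid progenitor. Each library is taken as 1 mouse, which the sources do not state, so the p-values measure the spread between libraries.

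CXCR4 is the receptor for the chemokine CXCL12, which stromal cells of the marrow release, and the signal draws HSCs to the niche and holds them there. Integrins are pairs of an alpha and a beta chain that bind matrix or other cells once they are activated. The alpha 4, alpha 5 and alpha 6 chains pair with beta 1 to bind VCAM-1 and fibronectin, fibronectin, and laminin, while alpha L pairs with beta 2 to bind ICAMs. CD44 binds hyaluronan, and PSGL-1, the product of Selplg, binds the selectins on vessel walls. VCAM-1 is itself a ligand, best known on endothelium, stroma and macrophages.

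In mm10 (Gencode M21) the genes lie on 7 chromosomes: Cxcr4 at chr1:128588199-128592293, Itga4 at chr2:79255426-79333123, Itga5 at chr15:103344286-103366763, Itga6 at chr2:71745616-71858416, Itgb1 at chr8:128685654-128733200, Itgal at chr7:127296260-127335138, Cd44 at chr2:102811141-102901665, Selplg at chr5:113818536-113832644 and Vcam1 at chr3:116109949-116129688. Itga4, Itga6, Itgb1 and Itgal are on the plus strand and the others on the minus strand.

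RefSeq promoters (GRCm38.p6) were found for 5 of the 9 members, Cxcr4, Itga4, Itga5, Itgb1 and Cd44. The 250 bases before the start are shown for Cxcr4, lowest in HSCs among the populations, and for a pair of alpha chains whose order across HSCs and CLPs was opposite, Itga4 and Itga5. The windows lie at chr1:128592300-128592549 on the minus strand, chr2:79255176-79255425 on the plus strand and chr15:103366792-103367041 on the minus strand. Capitals mark matches, on either strand, to the TATA box TATAAA, the GC box GGGCGG and the NRF-1 palindrome.

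Cxcr4: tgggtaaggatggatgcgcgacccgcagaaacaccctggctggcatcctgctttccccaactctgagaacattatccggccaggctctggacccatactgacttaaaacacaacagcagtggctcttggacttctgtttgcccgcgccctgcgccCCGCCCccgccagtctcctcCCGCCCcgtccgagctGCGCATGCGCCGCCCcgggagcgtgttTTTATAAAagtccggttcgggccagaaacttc

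Itga4: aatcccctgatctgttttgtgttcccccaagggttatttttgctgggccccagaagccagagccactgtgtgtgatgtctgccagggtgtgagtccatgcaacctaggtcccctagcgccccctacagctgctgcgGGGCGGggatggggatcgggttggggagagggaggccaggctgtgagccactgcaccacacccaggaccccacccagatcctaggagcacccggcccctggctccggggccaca

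Itga5: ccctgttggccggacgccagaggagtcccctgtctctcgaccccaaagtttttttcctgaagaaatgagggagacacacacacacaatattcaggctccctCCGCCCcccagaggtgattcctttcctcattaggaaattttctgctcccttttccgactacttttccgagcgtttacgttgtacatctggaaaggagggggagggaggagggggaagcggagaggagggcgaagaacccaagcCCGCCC

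Of the 5 windows, the one of Cxcr4 held a TATA box and the palindrome. Its TATA matches run on both strands and overlap, between 32 and 25 bases before the start, and its palindrome lies 59 to 50 bases before it. The last of the 3 GC boxes of Cxcr4 overlaps the palindrome by its end base. Among 32851 windows of the same length, 12.4% held a TATA box, 0.782% the palindrome and 32.7% a GC box. GC boxes were present in Cxcr4, Itga4, Itga5 and Itgb1. These matches are descriptions of sequence, not sites shown to be bound.

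The labels were checked against markers: all 8 HSC, 8 CLP and 8 GMP markers were highest, on average, in the population they mark. Counted reads per library ran from 4792380 to 18213674 in cohort 2 and from 8897256 to 23816042 in cohort 1. As a measure of stray reads, counts relative to library size (CPM) were scaled within each cell type of cohort 2 and within cohort 1. They were then summed over 1971 olfactory and vomeronasal receptor genes. This background was 892.5 to 6453 CPM in cohort 2 and 6622 to 11690 CPM in cohort 1. In cohort 1, 4 libraries stood apart, O-NR replicates 1 and 2 and O-NR-RC replicates 2 and 3, with 11100 to 11690 CPM against 6622 to 9374 CPM in the other 5. Their summed HSC markers were 769 to 887 CPM against 1506 to 2267 CPM.

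Levels across the 3 populations were compared first, in O-WT mice. The stated choice of the genes used no CLP or GMP library, but the 4 O-WT HSC libraries are one side of the contrast that chose Cxcr4. CPM per kb of exon divides by the joined length of all annotated exons of a gene, 1808 bases for Cxcr4 and 13978 for Itga4. An order between genes depends on these lengths, which need not be those of the transcripts present. By this measure Itgb1 (37.9 ± 11.9, SD, n = 4) and Itga6 (34.1 ± 10.5) were at the head of the members in HSCs. Itga5 (16.7 ± 3.0), Cxcr4 (15.1 ± 3.4), Itga4 (13.7 ± 1.8) and Cd44 (12.1 ± 2.7) followed, each within 1 SD of the next. Selplg stood at 8.64 ± 2.52, and Itgal (1.22 ± 0.22) and Vcam1 (0.894 ± 0.185) came last. In CLPs and in GMPs Cxcr4 headed the list, at 64.9 ± 23.5 and 61.5 ± 4.1 CPM per kb. Itga4 came next in CLPs (37.2 ± 10.9), a difference smaller than the SDs together, and Itgb1 in GMPs (43.2 ± 4.5).

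**Figure D1:**
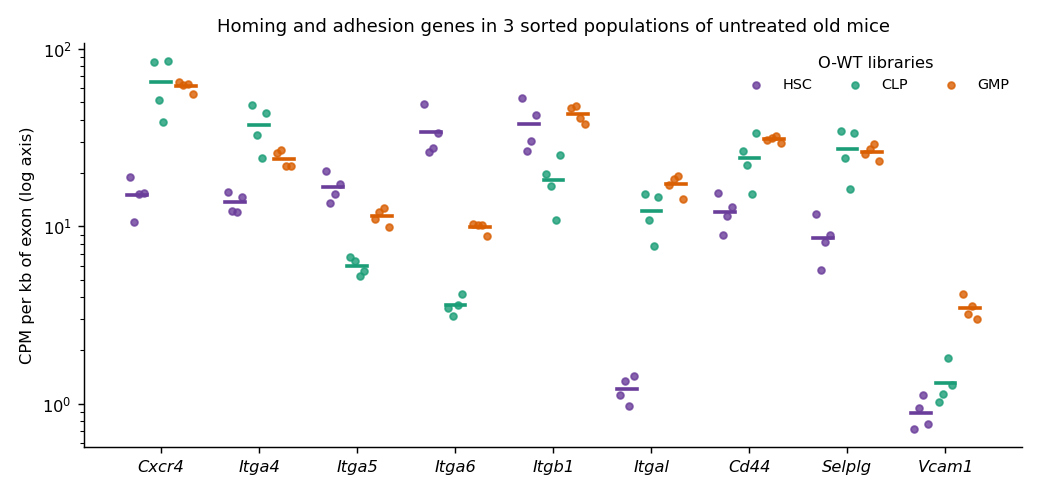
CPM per kb of exon (log axis) of the 9 genes in O-WT HSCs, CLPs and GMPs of cohort 2, with 1 point per library and a line at the mean of 4. Cxcr4 lies at a mean of 15.1 in HSCs, 64.9 in CLPs and 61.5 in GMPs, while Itga6 runs the other way, from 34.1 in HSCs to 3.60 in CLPs.

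Cxcr4 was lower in HSCs than in both progenitors. Scaled over all 24 libraries of cohort 2, the O-WT HSCs had 34.1, 19.1, 27.6 and 28.1 CPM, the CLPs 152, 93.5, 69.7 and 154 CPM, and the GMPs 117, 113, 115 and 100.3 CPM. No HSC library reached any CLP or GMP library, and the CLPs spread around the GMPs. The fitted log2 difference was -2.11 (SE 0.19; adjusted p = 6.81e-10, edgeR) for HSCs against CLPs and -2.03 (SE 0.19; adjusted p = 8.87e-10) for HSCs against GMPs. CLPs and GMPs differed by 0.08, with a 95% interval from -0.29 to 0.46 (adjusted p = 0.695).

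The scaling of libraries shifts all genes of such a comparison together. The median log2 difference of all 20044 genes tested was -0.08 for HSCs against CLPs, 0.31 for HSCs against GMPs and 0.28 for CLPs against GMPs, and upper quartile scaling moved these to -0.28, 0.58 and 0.74. Relative to the median, Cxcr4 was at -2.04, -2.34 and -0.19. With upper quartile scaling the difference of Cxcr4 between CLPs and GMPs was 0.53 and called, below that median too, and with the receptor background as a covariate 0.58 and called. The values below are given as fitted and, where the 2 scalings give different calls, this is said.

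Of the alpha chains that pair with beta 1, Itga6, a laminin receptor chain, was 9.18-fold higher in HSCs than in CLPs (log2 difference 3.20, SE 0.19; adjusted p = 1.88e-13) and 3.42-fold higher than in GMPs (adjusted p = 2.62e-09). Its libraries did not overlap, at 237 to 443 CPM in HSCs, 28.2 to 37.7 in CLPs and 79.6 to 92.7 in GMPs. Itga5, the fibronectin receptor chain, was 2.73-fold higher in HSCs than in CLPs (adjusted p = 1.00e-08) and 1.47-fold higher than in GMPs (log2 difference 0.55, SE 0.15; adjusted p = 0.00295). The last call was lost with DESeq2, with a filter at 1 CPM, with no filter, and without GMP replicate 1 or 4.

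Itga4 ran the other way. Its levels were 169 to 219 CPM in HSCs, 338 to 675 CPM in CLPs and 305 to 375 CPM in GMPs. It was lower in HSCs than in CLPs by 1.45 on the log2 scale (SE 0.20; adjusted p = 8.23e-07) and than in GMPs by 0.82 (SE 0.19; adjusted p = 9.29e-04). CLPs were above GMPs by 0.63 (SE 0.19; adjusted p = 0.00746), a call lost without CLP replicate 1 or 4, without GMP replicate 1, 3 or 4, with a filter at 1 CPM and with none. Exons of Itga4 overlap Cerkl on the opposite strand, and the strand setting of the counting is not given in the sources used here, so reads of the overlap cannot be assigned.

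The share of each alpha chain within the sum of Itga4, Itga5 and Itga6 does not depend on the scaling, but it depends on the exon lengths used. Other alpha chains are not in this sum. Computed from CPM per kb, alpha 6 made up 52.3% ± 3.5 (SD, n = 4) of the sum in O-WT HSCs, 8.03% ± 2.08 in CLPs and 21.8% ± 0.8 in GMPs. Alpha 4 made up 21.6% ± 2.2, 78.7% ± 4.3 and 53.1% ± 2.9, and alpha 5 made up 26.1% ± 1.6, 13.2% ± 2.6 and 25.1% ± 2.3. The O-NR libraries gave alpha 6 shares of 54.7% ± 3.6, 6.19% ± 0.42 and 22.1% ± 1.3. In cohort 1 HSCs the alpha 6 share was 46.6% to 56.7% in the 9 libraries, including the 4 that stood apart.

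**Figure D2:**
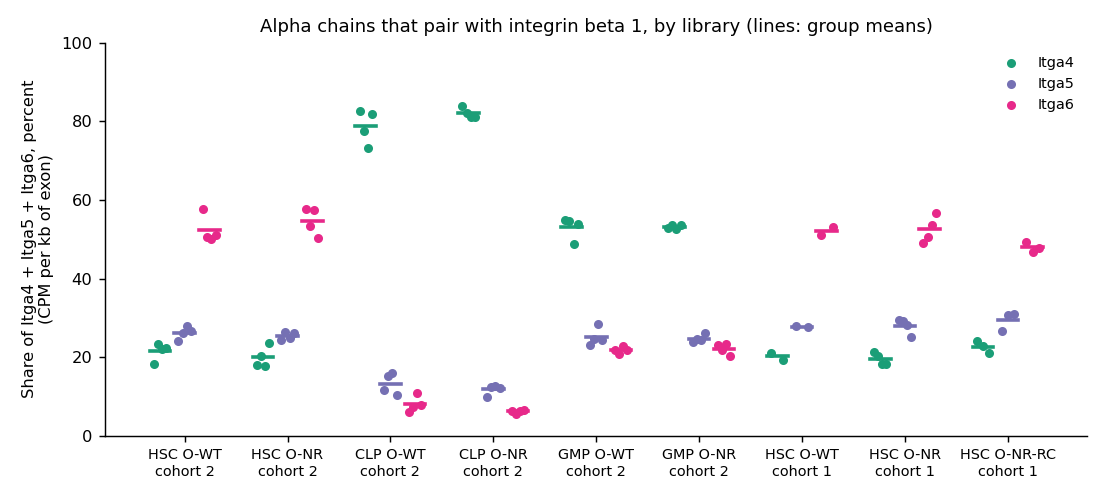
Share, in percent, of Itga4, Itga5 and Itga6 in their sum of CPM per kb of exon, with 1 point per library and a line at the group mean, for the 9 groups of both cohorts. Itga6 holds the largest share in every HSC group and Itga4 in every CLP and GMP group.

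Itgb1, the shared beta 1 chain, was 2.05-fold higher in HSCs than in CLPs (log2 difference 1.03, SE 0.20; adjusted p = 1.22e-04) and 2.36-fold higher in GMPs than in CLPs (adjusted p = 1.18e-05). HSCs and GMPs differed by -0.20, with a 95% interval from -0.60 to 0.19. Itga4, Itga5 and Itga6, summed without other alpha chains, came to 1.74 ± 0.18 times Itgb1 in O-WT HSCs, 2.65 ± 0.43 times in CLPs and 1.05 ± 0.04 times in GMPs.

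Itgal showed the widest gap of the 9. It stood at 6.35 to 9.47 CPM in O-WT HSCs, 50.7 to 101 CPM in CLPs and 94.2 to 127 CPM in GMPs, 9.87-fold and 13.99-fold lower in HSCs (adjusted p = 2.32e-13 and 1.04e-14). Per kb, Itgal in the 8 HSC libraries of cohort 2 was 2.09 to 3.90 times the mean level of the receptor genes, and the part of stray reads in its level was not tested. CLPs lay below GMPs by 0.50 on the log2 scale (adjusted p = 0.0166), but the call was lost with upper quartile scaling (-0.04), in O-NR libraries (-0.335), with the background covariate (-0.16) and without CLP replicate 2 or 3. The partner chain Itgb2 is not a member. Scaled within each cell type, it stood at 9.52 ± 1.08, 11.9 ± 2.1 and 15.1 ± 1.1 CPM per kb in HSCs, CLPs and GMPs. Levels scaled in this way cannot be compared between the populations. The ratio of Itgal to Itgb2, which does not depend on the scaling, was 0.141, 1.17 and 0.985.

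Cd44 and Selplg were lower in HSCs than in both progenitors. Cd44 was 2.03-fold lower than in CLPs (adjusted p = 5.70e-05) and 2.55-fold lower than in GMPs (adjusted p = 5.84e-07), and Selplg 3.18-fold and 3.07-fold lower (adjusted p = 4.32e-08 and 4.68e-08). Between CLPs and GMPs neither passed the test, with log2 differences of -0.33 (95% interval -0.70 to 0.04) and 0.05 (-0.32 to 0.43). Upper quartile scaling and the background covariate called Selplg higher in CLPs, by 0.51 and 0.62, and turned the sign of Cd44, to 0.12 and 0.10, while Cd44 was called lower in CLPs without CLP replicate 4 (-0.56).

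Vcam1 was the least expressed member per kb in each population. GMPs had 26.7 to 36.9 CPM, 3.82-fold above HSCs (adjusted p = 4.91e-08) and 2.57-fold above CLPs (adjusted p = 1.81e-05). HSCs, from 6.44 CPM, and CLPs, up to 16.1 CPM, overlapped and differed by -0.58 (SE 0.23; adjusted p = 0.0604 in edgeR). The difference passed with the replicate number as a block (adjusted p = 0.0466), with DESeq2 (-0.62) and with upper quartile scaling (-0.78). It was -0.31 without CLP replicate 3, -0.34 with the background covariate and -0.05 in O-NR libraries, all uncalled. Per kb, Vcam1 in cohort 2 was 1.70 to 3.04 times the receptor genes in HSCs, 1.36 to 2.81 times in CLPs and 7.20 to 17.8 times in GMPs. Its exons also overlap the antisense gene Gm43109.

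In all, 8 of 9 members were called between HSCs and CLPs, where 30.3% of all genes were, 3 higher in HSCs (19.9% of all genes) and 5 lower (10.4%). Between HSCs and GMPs 8 of 9 were called, against 44.2% of all genes, 2 higher (21.5%) and 6 lower (22.6%). Between CLPs and GMPs 6 of 9 were called, against 60.8%, 1 higher (32.2%) and 5 lower (28.6%). The groups did not overlap for 7, 8 and 4 members, against 24.1%, 39.4% and 46.2% of all genes. The 3 comparisons share libraries. With the O-NR libraries of cohort 2 in place of O-WT the counts were 8, 8 and 5, where 40.9%, 46.4% and 50.1% of all genes were called.

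Of the related genes, the list of CXCR4 signalling and desensitization (G protein subunits, arrestins, receptor kinases, regulators) had 11 of 35 measured members higher and 6 lower in HSCs than in CLPs, beside 19.9% and 10.4% of all genes. Against GMPs 6 were higher and 18 lower, beside 21.5% and 22.6%. Between CLPs and GMPs 2 were higher and 22 lower, beside 32.2% and 28.6%. Rgs1, a regulator that limits such signalling, stood at 68.8 ± 9.1 CPM in O-WT HSCs, 13.4 ± 6.2 in CLPs and 5.69 ± 0.64 in GMPs (HSCs against GMPs, adjusted p = 8.02e-14). Of 21 other integrins, 4 were higher and 4 lower in HSCs than in CLPs, with Itgb3, a partner of alpha V, at 274 ± 115 CPM against 11.8 ± 2.6 (adjusted p = 2.65e-14). Dpp4, an enzyme that cleaves CXCL12, stood at 123 ± 34 CPM in CLPs and 39.1 ± 4.2 in GMPs (adjusted p = 9.98e-09).

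Across the 24 libraries of cohort 2, the genes whose log2 CPM was most like that of Cxcr4 among the 22572 others measured were Ticam2 (Pearson r = 0.98), Dock10 (0.97), Ulbp1 (0.97), Ndc80 (0.97) and Esco2 (0.97). The 24 libraries share their cell types, so these values mostly describe a low level in HSCs. Of the other members, Itgal (0.94), Selplg (0.90), Cd44 (0.88) and Itga4 (0.85) varied with Cxcr4, and Itga6 (-0.85) and Itga5 (-0.74) against it. Mean CPM in O-NR against O-WT HSCs was 6.30 and 8.18 for Ticam2 and 100.1 and 106 for Dock10.

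The second question was whether NR moves these genes. In HSCs of cohort 2, the contrast that chose them, Cxcr4 stood at 30.1, 24.4, 32.1 and 27.96 CPM in O-WT and 12.7, 19.0, 21.2 and 16.7 CPM in O-NR, scaled within the HSC libraries. The 4 O-NR libraries all lay below the 4 O-WT libraries, as 2.65% of all genes did not overlap in either direction. The difference was -0.72 on the log2 scale (SE 0.15), 1.65-fold lower, where 0.777% of 17364 genes had an unadjusted p below 0.01 and 0.288% were lower, from which nothing is read here. It ran from -0.83 to -0.61 as single libraries were left out, which is a description only, since this contrast chose the gene. Unscaled CPM did not overlap either, at 26.4 or more and 19.95 or less. With scaling over the 24 libraries they did, at 19.1 to 34.1 and 13.5 to 23.9 CPM.

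**Figure D3:**
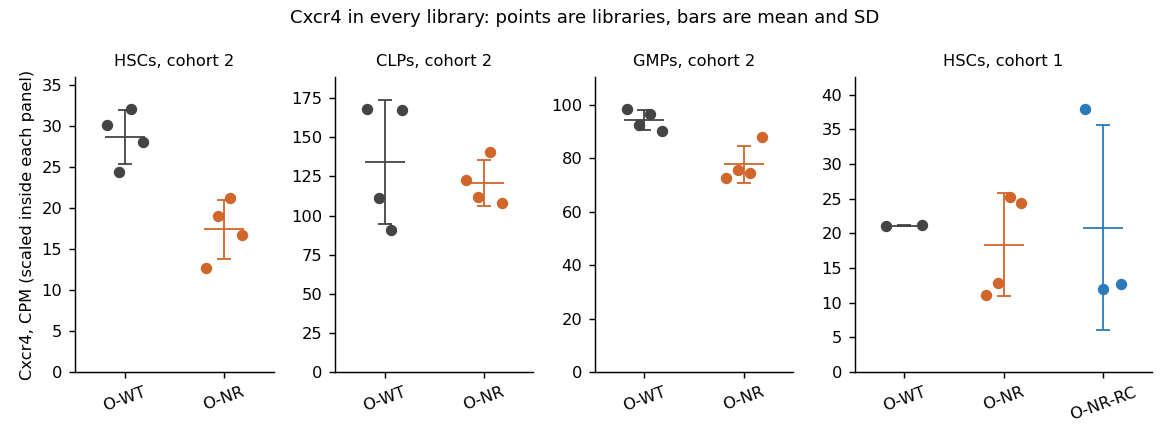
Cxcr4 CPM in every library, scaled inside each panel, with mean and SD of each group, for HSCs, CLPs and GMPs of cohort 2 and HSCs of cohort 1. O-NR lies below O-WT in HSCs (12.7 to 21.2 against 24.4 to 32.1) and GMPs (72.6 to 87.9 against 90.2 to 98.6) of cohort 2, and the groups overlap in CLPs and in cohort 1.

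No other member showed such a gap in these HSCs, where Cxcr4 had been chosen for its difference. Selplg (0.22), Itgb1 (0.20), Itga6 (0.18), Cd44 (0.10) and Itga5 (0.08) had small positive log2 differences, with SEs of 0.10 to 0.14. Itga4 (0.01), Vcam1 (0.01) and Itgal (-0.04) lay near 0. Itgb1, for example, stood at 189, 139, 143 and 172 CPM in O-WT and 185, 162, 202 and 191 CPM in O-NR, with overlap. Per kb, Cxcr4 stood at 15.1 ± 3.4 in O-WT HSCs and 9.57 ± 2.51 in O-NR HSCs, in rank 4 and rank 7 of the 9 members.

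Transcripts of antibody-producing cells varied between the same libraries. The summed level of 14 B and plasma cell markers was 184, 109, 264 and 769 CPM in O-WT HSCs and 177, 65.4, 83.0 and 54.7 CPM in O-NR HSCs, with overlap. Ighm alone was 75.2, 16.6, 106 and 420 CPM against 15.1, 1.90, 1.84 and 2.15 CPM, without overlap. Igkc was 62.8, 18.7, 88.3 and 276 CPM against 81.3, 0.0, 38.2 and 1.02 CPM, with overlap, and Jchain overlapped too. The defining B cell marker Cd79a was at 0.786 to 2.00 CPM in all 8, where CLPs held 52.5 to 131 CPM. Bulk RNA cannot tell fewer cells of a type from less RNA per cell, and the part of such cells in the level of Cxcr4 was not tested.

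The stated choice used no GMP library, though same-numbered libraries of the 3 populations may come from the same mice. Earlier results of these data were also known when the members were chosen. In the GMP libraries Cxcr4 showed a smaller difference of the same sign. Cxcr4 stood at 98.6, 92.5, 96.6 and 90.2 CPM in O-WT and 72.6, 75.8, 74.5 and 87.9 CPM in O-NR. The groups did not overlap, as for 3.03% of all genes, though 87.9 and 90.2 CPM lay close, and scaling over the 24 libraries made them overlap. Cxcr4 was 1.22-fold lower in O-NR (log2 difference -0.28, SE 0.08, 95% interval -0.45 to -0.12), which is short of the study's limit on fold change. It was the 1 member of 9 called at an unadjusted p below 0.01 in edgeR's quasi-likelihood test, where 0.986% of 13486 genes were called, 0.237% higher and 0.749% lower, and its adjusted p was 0.905. No gene passed at an adjusted p below 0.05 with edgeR, 651 had an unadjusted p below 0.05, and DESeq2 gave 10 at an adjusted p below 0.05, Cxcr4 not among them (adjusted p = 0.153).

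The GMP call depended on the settings. It was kept with DESeq2, upper quartile scaling, the replicate block (edgeR, -0.29) and the receptor background as a covariate (-0.27). It was lost with a filter at 1 CPM (-0.29), with no filter (-0.32) and without O-NR replicate 1 (-0.25) or 2 (-0.27), so the sign held in each. The summed level of 14 monocyte and macrophage markers was 293, 229, 374 and 242 CPM in O-WT and 192, 208, 231 and 448 CPM in O-NR, with overlap. Ighm was 52.9, 46.1, 52.4 and 32.5 CPM against 24.9, 28.1, 30.8 and 98.7 CPM. Replicate 4 of O-NR was highest in both and in Cxcr4 within its group, and replicate 4 of O-WT lowest in Ighm and in Cxcr4. Without both, the difference of Cxcr4 was -0.37 (adjusted p = 0.0575, edgeR), an alternative chosen after seeing the data, and the part of these cells was not tested.

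The other 8 members were not called in GMPs. Their log2 differences ran from -0.21 for Vcam1 (95% interval -0.48 to 0.06) to 0.10 for Cd44 (-0.05 to 0.25). For Itga4, Itga5, Itga6, Itgb1 and Itgal the intervals stayed within -0.27 and 0.26, so larger changes of these 5 were outside them.

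In CLPs 0 of the 9 members were called, where 0.412% of 19909 genes were with edgeR, 0.156% higher and 0.256% lower. DESeq2 called 117 genes, none of them a member, 640 genes had an unadjusted p below 0.05 in edgeR, and none passed after adjustment. Cxcr4 stood at 168, 111, 90.7 and 168 CPM in O-WT and 123, 112, 141 and 108 CPM in O-NR, with full overlap, and none of the 9 separated the groups, as 2.54% of all genes did. Its log2 difference was -0.16 (SE 0.21), with a 95% interval from -0.58 to 0.27. Vcam1 had the largest difference, -0.56 (SE 0.30, 95% interval -1.17 to 0.05, adjusted p = 1.00 in edgeR). Without O-WT replicate 3 it was -0.29 and that of Cxcr4 -0.30, both uncalled. Its 10.1, 12.02, 20.9 and 12.3 CPM in O-WT and 7.34, 6.53, 9.97 and 13.6 CPM in O-NR overlap. O-WT replicate 3, highest in Vcam1, was the shallowest library and had the most receptor background, 6453 CPM, and the lowest Cxcr4, Itga4, Itgb1, Itgal, Cd44 and Selplg of its group. Whether the effect of NR on Cxcr4 differs between HSCs, CLPs and GMPs was not tested, since the HSC contrast chose the gene.

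**Figure D4:**
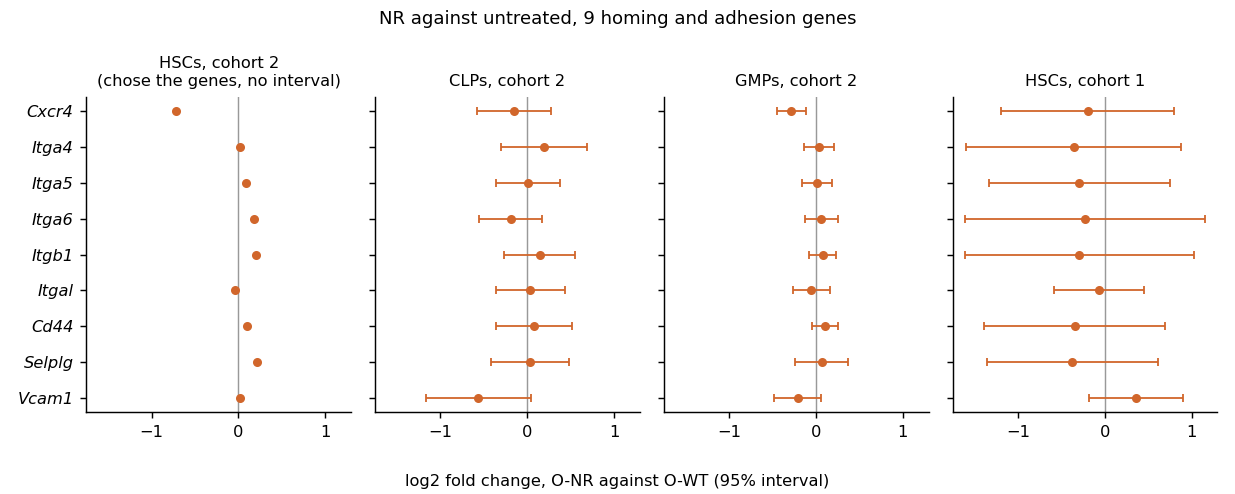
Log2 fold change of O-NR against O-WT for the 9 genes in HSCs, CLPs and GMPs of cohort 2 and HSCs of cohort 1, with 95% intervals except in the cohort 2 HSCs, the contrast that chose the genes. Cxcr4 lies at -0.72 in those HSCs and at -0.28 in GMPs (-0.45 to -0.12), and the intervals of cohort 1 are wide.

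Among the 162 genes of the 7 related lists, 0 of 136 measured in GMPs and 1 of 151 in CLPs were called. The latter was Mmp9, a matrix protease of granulocytes, at 4.83 to 10.1 CPM in O-WT and 2.37 to 3.48 CPM in O-NR CLPs, scaled over the 24 libraries (log2 difference -1.31, SE 0.39, adjusted p = 1.00 in edgeR), a call lost without O-WT replicate 4 (-1.103). The summed neutrophil markers were 175, 63.3, 149 and 216 CPM in O-WT and 168, 126, 25.2 and 43.1 CPM in O-NR CLPs, and their part was not tested. The median log2 difference of the lists together was 0.02 in CLPs and -0.01 in GMPs, where that of all genes lay within 0.01 of 0.

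Cohort 1 offered HSCs with NR and after its withdrawal. The choice is taken not to have used them, which is not stated. Cxcr4 stood at 21.0 and 21.2 CPM in O-WT, 11.2, 12.8, 25.2 and 24.3 CPM in O-NR and 38.0, 11.9 and 12.6 CPM in O-NR-RC. The O-NR libraries lay on both sides of O-WT, and so did O-NR-RC. O-NR and O-WT differed by -0.20 (SE 0.46), with a 95% interval from -1.19 to 0.80. O-NR-RC differed by 0.18 from O-NR (SE 0.41) and by -0.01 from O-WT (SE 0.49). None of the 9 members was called in the 3 contrasts, where 0.048%, 0.036% and 0.078% of 33350 genes were called with edgeR. Of these, 0.021%, 0.033% and 0.042% were higher and 0.027%, 0.003% and 0.036% lower. None passed at an adjusted p below 0.05, and 182, 97 and 265 genes had an unadjusted p below 0.05. Without O-NR-RC replicate 1, Cxcr4 in O-NR-RC was at -0.59 against O-NR and -0.78 against O-WT, both uncalled.

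The level of most members moved with the receptor background in cohort 1. In the 4 libraries that stood apart Cxcr4 was 11.2 to 12.8 CPM, against 21.0 to 38.0 CPM in the other 5. Itga6 was 159 to 189 against 326 to 492 CPM, Itgb1 74.1 to 81.5 against 142 to 279 CPM, and Selplg 23.3 to 31.5 against 51.7 to 72.9 CPM. Itga4, Itga5 and Cd44 split the same way, without overlap. Itgal (24.8 to 31.2 CPM) and Vcam1 (16.5 to 27.7 CPM) did not fall, with Vcam1 at 21.4 to 27.7 CPM in the 4 and 16.5 to 22.1 CPM in the others. Both stood per kb at 1.25 to 4.03 times the receptor genes in all 9 libraries.

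**Figure D5:**
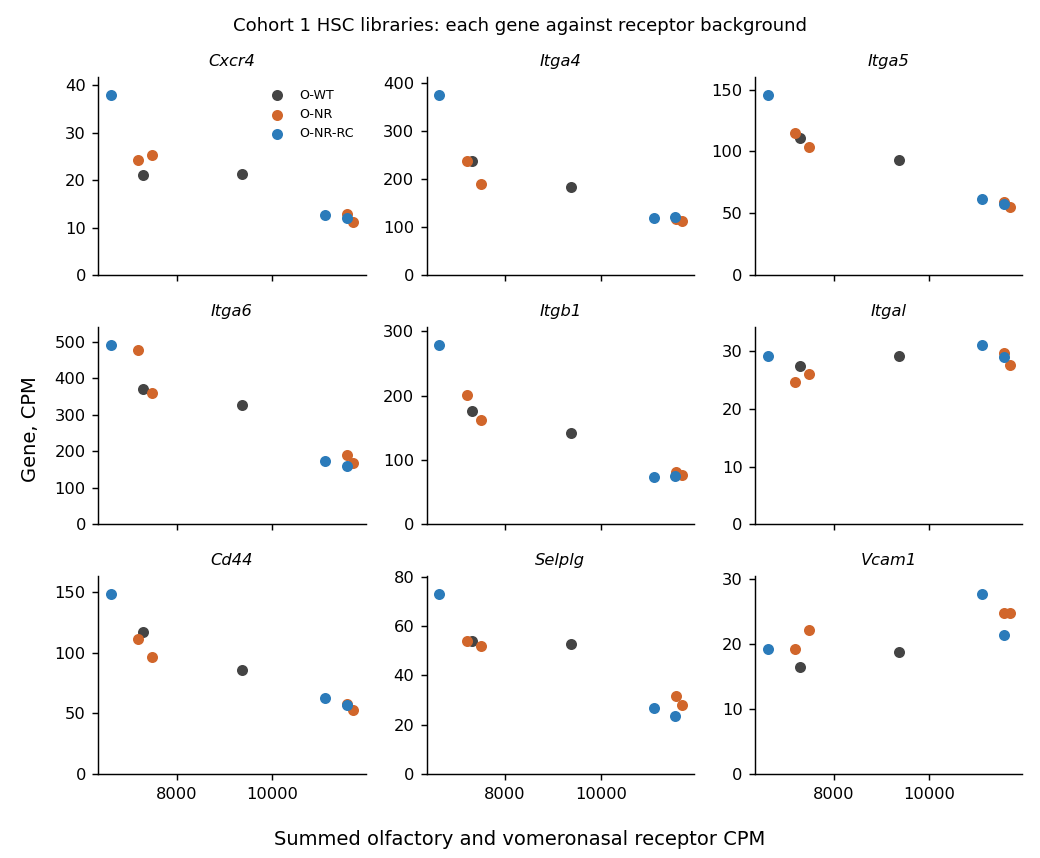
CPM of each of the 9 genes against the summed CPM of olfactory and vomeronasal receptor genes in the 9 HSC libraries of cohort 1, coloured by group. In the 4 libraries with 11100 CPM or more of receptor background, 7 genes lie below all other libraries, and Itgal and Vcam1 do not.

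Without the 4 libraries 1 O-NR-RC library remained, beside 2 of O-NR and 2 of O-WT, the lone one assumed to vary like the others. O-NR and O-WT then differed by 0.20 for Cxcr4 and between -0.18 and 0.23 for the other members, and 0 of 9 were called. The remaining O-NR-RC library was above O-NR for Cxcr4 (0.53), Itga4 (0.73) and Itgb1 (0.54) and above O-WT for the same genes (0.73, 0.72 and 0.70), 3 called in each, where 1107 and 3117 of 28275 genes were called. At an adjusted p below 0.05 in edgeR, 1 of these held, Cxcr4 against O-WT (adjusted p = 0.0301). That library held 85.5 CPM of Ighm, against 4.38 to 5.65 CPM in the 2 O-WT and 2 O-NR libraries. With the background as a covariate, O-NR and O-WT differed by -0.05 for Cxcr4. Itga4 was then called higher in O-NR-RC than in O-NR (0.25), 1 of the 9, where 1.31% of all genes were called. Without O-NR-RC replicate 1, Selplg was called lower in O-NR-RC than in O-WT, by 1.097 on the log2 scale, where 1.45% of all genes were called. The 3 contrasts share libraries.

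No gene of the 7 related lists was called in cohort 1, of 159 measured, and the median of the lists was -0.11 for O-NR against O-WT, beside -0.01 for all genes and -0.29 for the members. In the cohort 2 HSCs the lists together had a median of 0.02, that of all genes being -0.01, with CXCR4 signalling and desensitization at 0.08 over 35 genes.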

How the data were processed

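Total RNA was sequenced from 33 libraries of sorted HSCs, CLPs and GMPs. After trimming (cutadapt) and alignment to mm10 (STAR), the authors used featureCounts, and the deposited values are raw counts for 55376 gene symbols. How strand and multi-mapped reads were treated is not given in the sources used here. The members and lists were chosen with earlier results of these data known.

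Fits were made with R 4.3.3 and edgeR 4.0.16 on genes over 3 CPM in a number of libraries equal to the smallest group, with TMM scaling and the quasi-likelihood test. NR contrasts were called at an unadjusted p below 0.01, the p threshold of the study, without its limit on fold change, and cell types at a Benjamini-Hochberg adjusted p below 0.05. Each cell type of cohort 2, the 9 libraries of cohort 1 and the 12 O-WT libraries of cohort 2 were fitted as separate sets. CPM are scaled within a cell type for NR and over the 24 libraries of cohort 2 for cell types. The levels of Itgb2, the marker sums and the receptor background are scaled within a cell type too, and cohort 1 within itself. As a covariate, the background entered as log2 of unscaled CPM. SEs were derived from the F statistic. Counts per kb use the joined length of all exons of a gene in Gencode M21, so orders, shares and ratios between genes depend on these lengths. The named related genes are up to 3 per direction with the smallest p among those called in a comparison, of which a part is given, and some results are not reported here.

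Alternatives were DESeq2 1.42.0, upper quartile scaling, filters at 1 CPM and none, each library left out, the replicate number as a block, O-NR libraries for cell types and, chosen after seeing the data, the receptor background as a covariate and the removal of 4 cohort 1 libraries or of 2 GMP libraries. O-WT and O-NR libraries of the same number did not deviate together (mean r 0.02 to 0.14 over 4 pairs), and neither did most cell types, except O-WT HSCs and CLPs (r 0.12 to 0.37 in every pair). Same-numbered libraries of the 3 cell types within a treatment may come from the same mice. Replicates of the same group differed by more than sampling noise (chi-square per degree of freedom 1.96 or more), so no library was a copy of another in its group. Libraries of different groups were not compared in this way. The values cannot show that replicates came from different mice. In cohort 1 the value was 1.96 for O-NR replicates 1 and 2 and 3.84 for 3 and 4, against 53.1 to 71.75 between these pairs. For O-NR-RC replicates 2 and 3 it was 4.02, against 73.2 and 101.5 with replicate 1. On simulated GMP counts of 13170 genes, 200 genes were changed by 1 on the log2 scale. Of these, 94.5% were recovered at a p below 0.01 in edgeR, and 0.961% of unchanged genes were called. Smaller changes, such as the -0.28 of Cxcr4 in GMPs, were not simulated, nor were stray cells or background. Intervals and counts of reads cover library spread and counting error only.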

Additional observations from a re-analysis of the deposited data

Results flagged for a closer look

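Of 63 groups of 4 libraries, 4 were flagged for a library far from its nearest neighbour relative to the range of the group. The limit was one by which chance flags about 1 group in 20, and wide gaps below it are not listed. Cxcr4 in replicate 4 of the O-NR GMPs, at 87.9 CPM against 72.6 to 75.8 CPM in the other libraries, was not flagged. Itga6 was 391 CPM in replicate 1 of the O-WT HSCs of cohort 2, against 289 to 303 CPM in the other 3 libraries. In the O-NR GMPs, replicate 4 had the lowest Itga6, 64.4 CPM against 82.7 to 86.3 CPM, and the highest Selplg, 143 CPM against 82.3 to 91.3 CPM. The same library had the highest monocyte and macrophage marker sum of its group (448 CPM). Itgb1 in replicate 1 of the O-NR GMPs was 160.0 CPM against 157 CPM in the other 3, a gap of small size in a narrow group.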

How the results depend on the processing

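Members called kept their number within 1.5 times under most alternatives, single libraries left out included. The exceptions were GMPs and cohort 1. In GMPs 0 in place of 1 were called with a filter at 1 CPM (0.609% of all genes) and with no filter (0.698%). As single GMP libraries were left out, 0 to 1 were called (0.453% to 2.11% of all genes). In cohort 1, O-NR-RC against O-NR gave 1 with the background covariate (1.31%). O-NR-RC against O-WT gave 1 without O-NR-RC replicate 1 (1.45%). Without the 4 libraries that stood apart, Cxcr4 (0.73), Itga4 (0.72) and Itgb1 (0.70) turned from an uncalled negative to a positive value in O-NR-RC against O-WT. The number called also changed, and O-NR-RC replicate 1 then stood alone in its group. It held 38.0 CPM of Cxcr4, against 11.9 and 12.6 CPM in O-NR-RC replicates 2 and 3, which were left out. Of 1206 values of single members under alternatives, 21 lost and 17 gained a call, and 108 uncalled values changed sign. With the replicate number as a block 0 members were called in CLPs (0.929% of all genes) and 1 in GMPs (0.927%). In each contrast of cohort 1 the block gave 0 (0.024% to 0.063% of all genes). Between cell types it gave 9, 8 and 6, beside 29.8%, 42.7% and 56.8% of all genes. Cxcr4 in cohort 2 HSCs was at -0.74 with the block. Counts of 56 or more per library limit Itgal and Vcam1 in cohort 2 HSCs, whose levels per kb there lie near those of the receptor genes.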

Other observations

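Cxcr4 was read by 141 to 1837 counts per library, Vcam1 by 63 to 481 and Itgal by 56 to 1757. Itgal in HSCs stood at 4.29 to 12.5 CPM in cohort 2 and 24.8 to 31.2 CPM in cohort 1, and Vcam1 at 5.68 to 12.6 and 16.5 to 27.7 CPM, without overlap between cohorts in either gene. The receptor background of HSC libraries was 1570 to 4308 CPM in cohort 2 and 6622 to 11690 CPM in cohort 1, and cohorts were scaled apart. In cohort 1, Ighm was 85.5 and 130 CPM in O-NR-RC replicates 1 and 3 and 4.38 to 6.86 CPM in the other 7 libraries.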
